A study of Mus musculus with 12 samples.

Results

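The expression of 10 genes of macrophage activation and arginine metabolism was followed in mouse monocytes after partial removal of the liver. The genes were taken by symbol from 52553 features in the count tables. Of the 10, Nos2, Acod1, Ass1, Slc7a2 and Gch1 belong to inflammatory activation, Arg1, Retnla, Chil3 and Il4ra to alternative activation, and Arg2 was followed beside them. All 10 passed the filter on low counts, which kept 20135 features.

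RNA sequencing was carried out on CD115+ cells of male C57BL/6 mice, sorted with magnetic beads from the spleen or from peripheral blood. CD115 is the receptor for colony stimulating factor 1, encoded by Csf1r, and is carried by monocytes and macrophages. There were 4 groups of 3 libraries, 12 libraries in all, each from the cells of 5 mice. The groups were intact spleen, spleen after resection, intact blood and blood after resection, and the resected animals had lost 70% of the liver mass 24 h before cell collection. No transgene or deletion was involved, and the age of the mice is not given in the sources used here. The control animals of these libraries are labelled intact rather than sham-operated, so the loss of liver tissue cannot be told apart from laparotomy and anaesthesia. Spleen cells were released with collagenase and treated with red cell lysis solution before the density gradient, while blood went to the gradient directly, so tissue and preparation cannot be told apart either. Nothing beyond the pooling of mice says how separate the libraries of a group were, and the p-values measure only the spread between these libraries.

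Arginine is a shared substrate of enzymes that define opposite states of the macrophage. Inducible nitric oxide synthase (Nos2) turns it into nitric oxide and citrulline and depends on tetrahydrobiopterin, whose synthesis starts with GTP cyclohydrolase 1 (Gch1). Argininosuccinate synthase (Ass1) recycles citrulline towards arginine, the cationic amino acid transporter encoded by Slc7a2 brings arginine into the cell, and Acod1 makes the antimicrobial metabolite itaconate. Arginase 1, cytosolic (Arg1), and arginase 2, mitochondrial (Arg2), split the same substrate into ornithine and urea. Interleukins 4 and 13 act through the receptor chain encoded by Il4ra and switch on Arg1 together with the secreted proteins RELM-alpha (Retnla) and Ym1 (Chil3), which serve as markers of the alternative state in mice. Ym1 is also made by cells of the neutrophil lineage.

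RefSeq promoter windows on the mouse build GRCm38.p6 were at hand for 6 of the 10 genes, namely Ass1, Chil3, Il4ra, Gch1, Acod1 and Retnla. The 250 bases before the start of transcription are printed for 4 of them, because their levels separated the libraries in different ways: Retnla by tissue, Chil3 and Acod1 by resection over a wide range, and Gch1 by resection over a narrow one. The windows are chr16:48842359-48842608 on the plus strand for Retnla, chr3:106167565-106167814 on the minus strand for Chil3, chr14:103046762-103047011 on the plus strand for Acod1 and chr14:47189414-47189663 on the minus strand for Gch1. Each is written 5′ to 3′ along the gene, its last base is position -1, and capitals mark the motif matches described after the sequences.
Retnla: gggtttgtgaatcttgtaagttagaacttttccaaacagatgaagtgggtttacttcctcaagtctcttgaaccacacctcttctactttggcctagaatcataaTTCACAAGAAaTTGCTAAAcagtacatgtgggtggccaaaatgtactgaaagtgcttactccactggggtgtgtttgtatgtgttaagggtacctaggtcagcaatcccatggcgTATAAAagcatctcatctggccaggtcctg
Chil3: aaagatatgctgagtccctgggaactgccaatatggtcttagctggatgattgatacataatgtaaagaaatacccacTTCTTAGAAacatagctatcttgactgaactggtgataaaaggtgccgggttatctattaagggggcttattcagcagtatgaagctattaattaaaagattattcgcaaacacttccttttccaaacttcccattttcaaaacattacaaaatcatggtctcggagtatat
Acod1: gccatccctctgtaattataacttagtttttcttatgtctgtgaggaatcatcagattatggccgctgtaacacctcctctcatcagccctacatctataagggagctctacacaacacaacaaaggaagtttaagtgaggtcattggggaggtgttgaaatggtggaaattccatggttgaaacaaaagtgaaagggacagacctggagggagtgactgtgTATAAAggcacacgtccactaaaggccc
Gch1: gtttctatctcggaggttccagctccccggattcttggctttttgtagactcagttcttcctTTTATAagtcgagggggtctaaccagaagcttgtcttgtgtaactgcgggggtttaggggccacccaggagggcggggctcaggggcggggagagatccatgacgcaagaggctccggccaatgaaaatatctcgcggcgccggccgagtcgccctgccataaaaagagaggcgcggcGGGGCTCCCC

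Both strands were searched for 7 motifs: the TATA box (TATAAA), a nuclear factor kappa B motif, the interferon-stimulated response element, a STAT motif (TTCNNNGAA), the longer STAT6 motif, AP-1 (TGANTCA) and C/EBP (TTNNGCAA). The TATA box was found at -30 to -25 in Retnla and at -28 to -23 in Acod1, and on the opposite strand at -188 to -183 in Gch1, against 12.4% of the 32851 promoter windows in the table. Retnla held the STAT6 letters at -145 to -136, which 5.85% of all windows hold, and those of C/EBP on the opposite strand at -134 to -127 (9.56% of windows). Chil3 held the shorter STAT letters at -172 to -164 (7.02% of windows), and Gch1 the kappa B motif at -10 to -1 (7.25%). The response element (2.98% of windows) and AP-1 (6.75%) were found in 0 of the 6 windows. No match overlapped a match to another motif, and a match is a description of the letters only.

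The 12 libraries held between 36990033 and 46401368 estimated counts. Levels are given as CPM, the count scaled to the TMM library size, and 3 counts, taken as the limit of counting, correspond to 0.0626 to 0.102 CPM. Csf1r, which encodes the sorted protein, was present throughout, at 374 to 525 CPM in intact spleen, 587 to 1192 CPM in spleen after resection, 209 to 467 CPM in intact blood and 601 to 719 CPM in blood after resection. Its adjusted p-value in edgeR's quasi-likelihood test was 0.0594 for resection in blood and 0.119 in spleen. The summed level of 13 monocyte genes was 3617 to 3877 CPM in intact spleen and 4490 to 4901 CPM in spleen after resection. In libraries 1 to 3 of intact blood it was 9883, 6877 and 3914 CPM, and in blood after resection 13814 to 16270 CPM. Transcripts of other cells were present too. In intact spleen 7 B-cell genes summed to 4754 to 5376 CPM. The libraries numbered 3 of both resected groups stood apart in transcripts of other cells. The summed level of 14 neutrophil genes was 5923, 5349 and 15328 CPM in libraries 1 to 3 of spleen after resection, and 4387, 5495 and 22558 CPM in those of blood. In the intact animals this sum was 930.3 to 1989.9 CPM in spleen and 159.9 to 421 CPM in blood. Library 3 of intact blood differed from the other libraries of its group, with 2600.4 CPM of T-cell genes against 864 and 879 CPM. In sorted bulk cells, fewer cells of a type and less RNA per cell cannot be told apart.

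In peripheral blood, resection was accompanied by higher levels of 4 of the 5 inflammatory genes, 2 of the 4 alternative genes and Arg2. A call required an absolute log2 fold change above 1 and a p-value under 0.05 after Benjamini-Hochberg adjustment over all features tested. Thus 7 of the 10 genes were called higher and 0 lower in blood, while 13.9% of all features were called in either direction, 7.80% higher and 6.11% lower. The median log2 fold change of the 10 genes was 4.26, beside -0.10 over all features. The libraries of intact and resected blood did not overlap for the same 7 genes, which was also true of 38.4% of all features.

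Nos2, the nitric oxide synthase of inflammatory macrophages, was close to silent in intact blood, with 0, 1 and 2 counts in the 3 libraries. After resection it measured 5.40, 11.4 and 111 CPM. The intact level lay at the limit of counting, and Nos2 in the resected animals was at least 517-fold higher (adjusted p = 0.00714, edgeR), and library 3 of the resected animals stood about an order of magnitude above the others. The bound is set by the mean of the resected libraries, and without library 3 it was 102-fold. Without library 3 of both resected groups, a comparison chosen after seeing the data, the call was kept with a fitted log2 fold change of 8.33 against 10.59.

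SE stands for standard error. Acod1, the itaconate synthase, had the lowest p-value of the 10 genes in this comparison. It measured 0.963, 2.49 and 0.917 CPM in intact blood and 86.9, 503 and 687 CPM after resection. The groups were separated by a wide gap, and the difference on the log2 scale was 8.19 (SE 0.99, adjusted p = 0.00113, edgeR). Slc7a2, the arginine transporter, rose from 2.48, 0.719 and 1.73 CPM to 40.5, 71.3 and 226 CPM, a log2 fold change of 6.10 (SE 0.89, adjusted p = 0.00223). All 3 libraries after resection lay above all 3 intact ones, with library 3 the highest.

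Gch1, which supplies the cofactor of nitric oxide synthase, moved over a smaller range. It measured 19.0, 17.8 and 7.38 CPM in intact blood and 46.4, 53.8 and 50.3 CPM after resection. The resected libraries lay close together, and the log2 fold change was 1.77 (SE 0.32, adjusted p = 0.00507). Ass1 was the inflammatory gene that was not called, with 59.1, 75.2 and 25.7 CPM in intact blood and 71.8, 51.1 and 51.8 CPM after resection. The libraries of the groups overlapped, and the log2 fold change of Ass1 was 0.13 (SE 0.42, adjusted p = 0.863).

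Among the alternative genes, Chil3 rose from 26.2, 17.9 and 4.59 CPM to 412, 666 and 1386 CPM in blood, a log2 fold change of 5.66 (SE 1.00, adjusted p = 0.00471). Its lowest library after resection stood far above its highest intact library. Arg1 measured 3.80, 0.719 and 72.0 CPM in intact blood and 380.1, 924 and 754 CPM after resection. The groups did not overlap, but the third intact library was far above the other 2 of its group, and the log2 fold change was 4.75 (SE 1.46, adjusted p = 0.0434). Without that library the Arg1 value was 8.24 (adjusted p = 0.00375). Among the 12 fits that each left out 1 library, the call was kept in that one and without library 3 of resected spleen, and the other 10 gave 4.26 to 5.12 with adjusted p-values of 0.0532 to 0.0913. The Arg1 call was also lost without a filter on low counts (adjusted p = 0.0530) and with only the 2 groups compared (0.118).

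Retnla and Il4ra did not follow the other alternative genes in blood. Retnla measured 525, 481 and 96.1 CPM in intact blood and 588, 309 and 204 CPM after resection, and the mean of both groups was 367 CPM (SD 236 and 198, n = 3 libraries each). The libraries overlapped over most of their range, and the fitted log2 fold change lay at 0.00 with an SE of 0.76. Il4ra, the receptor chain, stood at 483, 328 and 90.2 CPM in intact blood and at 405, 431 and 656 CPM after resection (log2 fold change 0.73, SE 0.51, adjusted p = 0.334). The intact library numbered 3 was the lowest of its group for both genes. It was also the lowest for Acod1, Ass1, Gch1, Chil3 and Arg2, but not for Nos2, Slc7a2 and Arg1. Its sum of 13 monocyte genes, 3914 CPM, was below the 9883 and 6877 CPM of libraries 1 and 2. Arg2, the mitochondrial arginase, was called, with 5.61, 7.30 and 3.80 CPM in intact blood and 38.8, 54.9 and 135 CPM after resection (log2 fold change 3.77, SE 0.64, adjusted p = 0.00403).

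**Figure D1:**
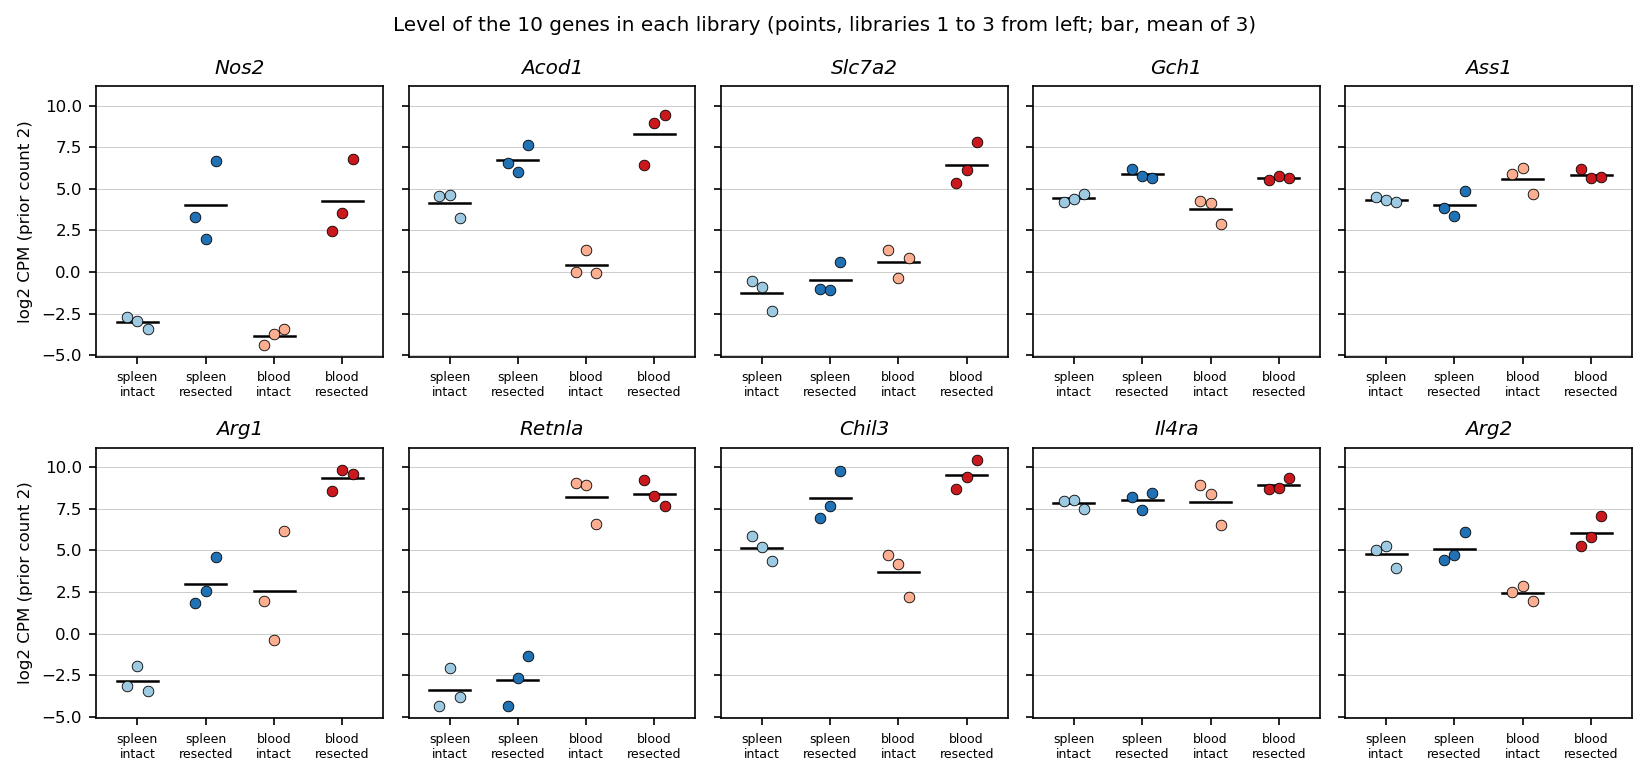
Levels of the 10 genes in each of the 12 libraries as log2 CPM (prior count 2), with points for libraries 1 to 3 of each group from left to right and a bar at the mean of the 3. In blood after resection Nos2, Acod1, Slc7a2, Gch1, Arg1, Chil3 and Arg2 lie above all intact blood libraries, whereas Retnla separates the tissues and overlaps between intact and resected blood.

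In the spleen the same operation moved fewer of these genes past the threshold. Nos2 was the only one of the 10 called, against 1.38% of all features called in either direction, 0.780% higher and 0.596% lower, and the median log2 fold change of the 10 genes was 1.24 beside 0.05 over all features. The libraries did not overlap for 5 of the 10 genes (35.1% of all features), with the resected libraries higher in each. These were Nos2, Acod1, Gch1, Arg1 and Chil3, and all 5 were called by DESeq2 on the same counts, where 7.77% of all features were called.

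Splenic Nos2 measured 0.105, 0.0835 and 0.0426 CPM in intact animals (5, 4 and 2 counts) and 9.996, 3.97 and 103 CPM after resection. The log2 fold change was 8.92 (SE 1.83, adjusted p = 0.0431, edgeR). Every library after resection was far above every intact one, yet among the 12 fits that each left out 1 library the call was kept only without library 3 of intact or of resected blood. The value lay between 6.44 and 9.45, and without library 3 of resected spleen it was 6.44 (adjusted p = 0.0916). The Nos2 call was also lost without a filter on low counts (adjusted p = 0.0667) and with only the 2 groups compared (0.0564). Without library 3 of both resected groups together it was kept at 6.44 (adjusted p = 0.0396).

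The 4 other genes with separated libraries did not pass in spleen. Gch1 measured 18.8, 20.9 and 26.2 CPM in intact spleen and 73.0, 53.8 and 50.4 CPM after resection (log2 fold change 1.43, SE 0.31, adjusted p = 0.0503). Acod1 measured 23.9, 25.0 and 9.49 CPM and then 93.5, 65.5 and 198 CPM (2.61, SE 0.76, adjusted p = 0.0975). For both genes the gap between the groups, in CPM, was wider than the spread within intact spleen, but the adjusted p-values missed the threshold. The resected libraries of Acod1, at 65.5 to 198 CPM, were spread more widely than that gap. Chil3 went from 57.6, 36.3 and 20.4 CPM to 122, 202 and 885 CPM (3.40, SE 0.90, adjusted p = 0.0792). Arg1 had 3, 10 and 2 counts in intact spleen, or 0.0426 to 0.209 CPM, and measured 3.57, 5.81 and 24.0 CPM after resection (6.68, SE 1.81, adjusted p = 0.0835). Library 3 was the highest after resection for Nos2, Acod1, Chil3 and Arg1, and the lowest for Gch1.

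The remaining 5 genes overlapped between intact and resected spleen. Arg2 measured 15.4 to 38.8 CPM in intact spleen and 21.6 to 69.9 CPM after resection, and Il4ra 177 to 263 CPM and 174 to 348 CPM. Ass1 measured 18.3 to 22.4 CPM and 10.1 to 28.7 CPM, and Slc7a2 stayed at 0.149 to 0.631 CPM in intact and 0.415 to 1.47 CPM in resected spleen. Retnla had 0, 9 and 1 counts in intact and 0, 5 and 14 counts in resected spleen, close to the limit of counting. Their adjusted p-values ran from 0.605 for Slc7a2 to 0.853 for Ass1.

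**Figure D2:**
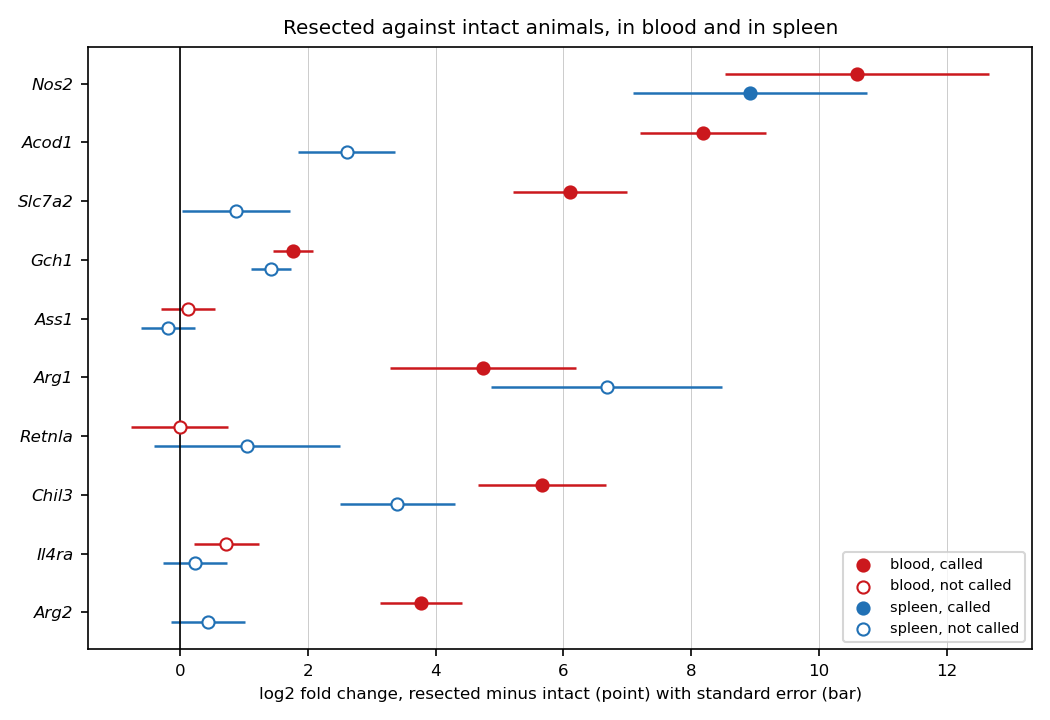
Log2 fold change from intact to resected animals for each gene (point, x axis) with its standard error (bar), for blood in red and spleen in blue, with filled points for called genes. In blood 7 of the 10 points are filled and in spleen 1, Nos2. Ass1 lies near 0 in both tissues and Retnla in blood, while Il4ra lies at 0.73 in blood and 0.23 in spleen.

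Whether resection acted differently in the 2 tissues was tested with the difference of the effects, blood minus spleen. Of the 10 genes 0 were called (0.283% of all features were, 0.219% higher and 0.0646% lower), with 3 at an unadjusted p under 0.05 in edgeR. DESeq2 called the same 3, and 5.78% of all features. The 3 genes were Acod1 with a difference of 5.58 (SE 1.10, adjusted p = 0.0738, edgeR), Slc7a2 with 5.23 (SE 1.16, adjusted p = 0.0967) and Arg2 with 3.34 (SE 0.84, adjusted p = 0.130). In each of them the increase was larger in blood, where the intact level of Acod1 and Arg2 was lower than in spleen. For Chil3 the difference was 2.26 (adjusted p = 0.348) and for Gch1 0.34 (adjusted p = 0.727). For Arg1 the difference was -1.93 with an SE of 2.17, and it turned to 1.57 without the third intact blood library.

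Blood and spleen already differed in intact animals. Of the 10 genes, 2 were called higher in blood and 2 lower, against 7.35% of all features called, 3.86% higher and 3.49% lower, and the median log2 fold change of the 10 was -0.10 beside -0.02 over all features, or 0.10 with haemoglobin genes left out. The libraries did not overlap for 6 of the 10 (34.5% of all features). Retnla gave the widest difference, with 481 and 525 CPM in 2 blood libraries and 96.1 CPM in the third against at most 9 counts, or 0.188 CPM, in a splenic library (log2 fold change 12.29, SE 1.30, adjusted p = 0.00129). Every blood library was higher by more than 2 orders of magnitude, and the call was kept in all 12 fits that left out 1 library. Arg1 was higher in blood too (7.88, SE 1.86, adjusted p = 0.0294), although the call was lost without the third blood library (4.48, adjusted p = 0.0524) and without each of the splenic ones (7.61 to 8.93). That blood library also held the highest sum of hepatocyte genes, 3.89 CPM against at most 0.138 CPM in the other intact blood libraries, with 60 counts of Alb, and the part of such transcripts in its Arg1 level of 72.0 CPM was not tested.

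Acod1 and Arg2 were lower in intact blood than in intact spleen. The log2 fold change of Acod1 was -3.74 (SE 0.82, adjusted p = 0.0226), and the highest blood library, at 2.49 CPM, was below the lowest splenic one, at 9.49 CPM. The Acod1 call was lost without library 1 or 2 of intact spleen and without library 1 or 3 of intact blood, at -3.47 to -3.39 (adjusted p 0.0657 to 0.0851). Arg2 differed by -2.38 (SE 0.61, adjusted p = 0.0384), with at most 7.30 CPM in blood and at least 15.4 CPM in spleen. The Arg2 call was kept only without library 3 of either resected group among the 12 fits that left out 1 library, and it was lost, at -2.42 (adjusted p = 0.0598), with the replicate number as a block. Ass1 (1.41, adjusted p = 0.0706), Slc7a2 (1.95, 0.172), Chil3 (-1.24, 0.397), Gch1 (-0.58, 0.281), Il4ra (0.38, 0.698) and Nos2 (-1.54, 0.777) were not called.

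After resection blood stood above spleen for 4 of the 10 genes and below for 0, against 13.2% of all features called in either direction, 6.28% higher and 6.87% lower. The libraries did not overlap for 5 of the 10 (42.4% of all features), and the median log2 fold change was 1.37 beside -0.14 over all features, which was -0.03 with RLE factors. Retnla remained a gene of the blood libraries, with 204 to 588 CPM in blood and at most 0.344 CPM in spleen (11.24, SE 1.23, adjusted p = 0.000698). Slc7a2 measured at least 40.5 CPM in blood and at most 1.47 CPM in spleen (7.18, SE 0.94, adjusted p = 0.00147). Both calls were kept in all 12 fits that left out 1 library.

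Arg1 differed by 5.95 after resection (SE 1.54, adjusted p = 0.0254), its lowest blood library at 380.1 CPM and its highest splenic one at 24.0 CPM. Ass1 differed by 1.72 (SE 0.43, adjusted p = 0.0229), with 51.1 to 71.8 CPM in blood and 10.1 to 28.7 CPM in spleen. The Ass1 call was lost with the replicate number as a block (adjusted p = 0.0514) and without library 1 or 2 of resected spleen or library 1 of resected blood. The Arg1 call was lost without library 1 or 2 of resected spleen and without library 2 or 3 of resected blood. Nos2 was alike in order of magnitude in the resected groups, at 5.40 to 111 CPM in blood and 3.97 to 103 CPM in spleen (0.14, SE 1.21, adjusted p = 0.958). Acod1 (1.84, adjusted p = 0.108), Chil3 (1.03, 0.420), Arg2 (0.95, 0.277), Il4ra (0.87, 0.256) and Gch1 (-0.24, 0.640) were not called.

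**Figure D3:**
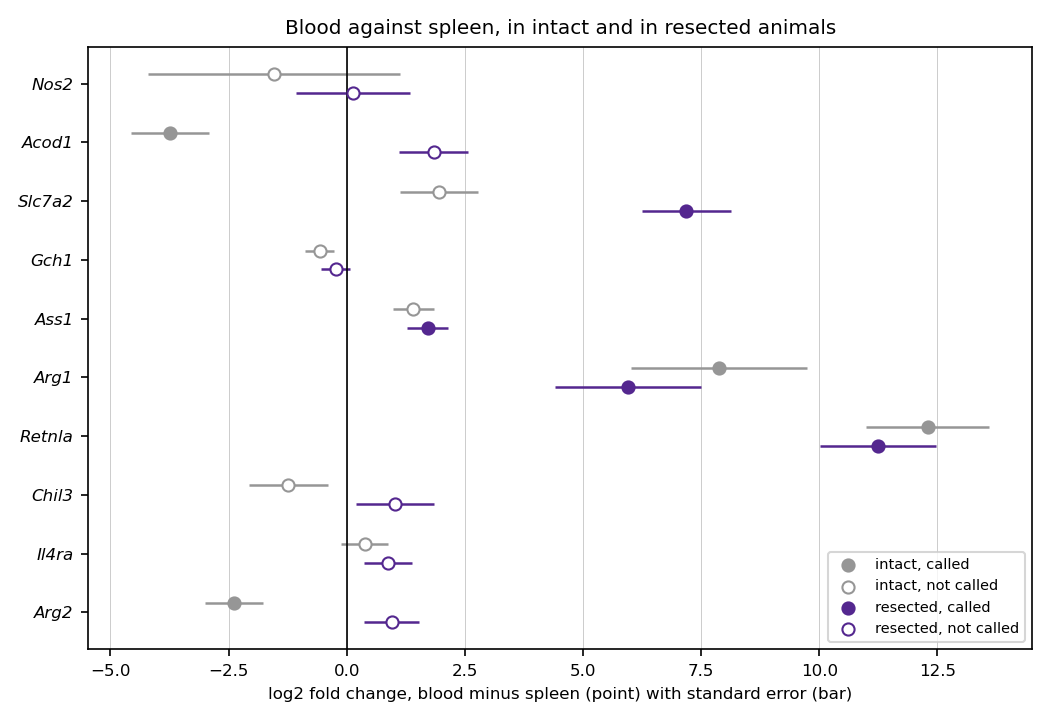
Log2 fold change of blood against spleen for each gene (point, x axis) with its standard error (bar), in grey for intact and in purple for resected animals, with filled points for called genes. Retnla and Arg1 are filled in both states, Acod1 and Arg2 on the lower side in intact animals, and Slc7a2 and Ass1 on the higher side after resection.

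Levels between genes were compared per kilobase of the principal transcript. In intact spleen Il4ra was highest, at 44.0 CPM per kb, followed by Chil3 at 24.8 and Arg2 at 20.3 CPM per kb, and the libraries of Chil3 overlapped with those of both others. In spleen after resection Chil3 was highest at a mean of 262 CPM per kb, over a range of 79.5 to 575, which lay above Il4ra (33.1 to 66.2 CPM per kb) in every library. In intact blood Retnla was highest at 613 CPM per kb, with Il4ra at 57.2 CPM per kb, and the lowest Retnla library, at 160.5 CPM per kb, was above every Il4ra library. In blood after resection Retnla (612 CPM per kb), Chil3 (534) and Arg1 (465) overlapped with each other. Acod1 followed in the mean at 162 and Il4ra at 94.6 CPM per kb. The Acod1 libraries ran from 33.1 to 262 CPM per kb and overlapped with those of Arg1 and Il4ra. Nos2 was the lowest of the 10 in the mean, at 12.4 CPM per kb.

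Genes of the surrounding pathways were counted in lists that include the members themselves. Of 17 tested genes of arginine uptake and nitric oxide signalling, 3 rose and 1 fell in blood after resection, against 7.80% of all features higher and 6.11% lower, with a list median of 0.13. Beside Nos2 and Slc7a2 these were Slc7a7, which forms the y+L transporter that exports cationic amino acids (25.3 ± 3.87 to 101 ± 4.16 CPM, SD, n = 3, log2 fold change 2.00, adjusted p = 0.000499), and its relative Slc7a6 on the lower side (-1.20, adjusted p = 0.0452). In spleen 1 of the 17 was called, Nos2, against 1.38% of all features. Nos1, the neuronal synthase, was found at up to 2.17 CPM in spleen and at no more than 2 counts in a blood library, at least 8.74-fold lower in intact blood (adjusted p = 0.0251) and at least 16.3-fold lower after resection (adjusted p = 0.00654).

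The list around arginase, which holds Arg1 and Arg2 with polyamine, proline and related genes, had 22 tested genes. In blood 3 of the 22 rose and 1 fell (list median 0.32). All features were called higher at a share of 7.80% and lower at 6.11%. Apart from Arg1 and Arg2, which rose, the called genes of the list were Gatm and Aldh18a1. Gatm is the first enzyme of creatine synthesis (1.04, adjusted p = 0.0409), and Aldh18a1 makes the precursor of proline (-1.15, adjusted p = 0.0174). In spleen 2 of the 22 were called, against 1.38% of all features, and neither is an arginase (list median 0.61). These were Odc1, ornithine decarboxylase, at 83.1 to 183 CPM in intact and 245 to 425 CPM in resected spleen (1.51, adjusted p = 0.0437), and Azin1, the antizyme inhibitor, at 98.0 to 113 and 198 to 227 CPM (1.01, adjusted p = 0.0183). The libraries of both genes were fully separated by resection. In blood Odc1 measured 148 to 208 CPM and 214 to 263 CPM and was not called.

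The lists around Gch1, Acod1 and Il4ra held shares of called genes no higher than those of all features, 13.9% in blood and 1.38% in spleen. Of 8 tested genes of tetrahydrobiopterin synthesis and recycling only Gch1 was called in blood and 0 were called in spleen. Of 23 genes of itaconate metabolism and the citrate cycle, Acod1 and Idh1, the cytosolic isocitrate dehydrogenase, were called in blood (Idh1 49.3 ± 6.56 to 219.8 ± 26.4 CPM, log2 fold change 2.16, adjusted p = 0.000581) and 0 in spleen. Of 14 tested genes of interleukin 4 and 13 signalling, 1 was called in blood, Il13ra1, which pairs with the Il4ra chain to bind both cytokines (1.90, adjusted p = 0.0360), and 0 in spleen. For the spleen, edgeR gave an unadjusted p under 0.05 to 1 of the 8, 9 of the 23 and 1 of the 14 genes. The libraries did not overlap for 4, 11 and 6 of them, beside 35.1% of all features.

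Genes of both wider activation programmes rose in blood. Of 26 inflammatory genes 14 rose and 1 fell, against 7.80% of all features called higher and 6.11% lower, with a list median of 1.89 beside -0.10 over all features, and of 23 alternative genes 9 rose and 0 fell, with a list median of 0.93. Among the inflammatory genes Il1a rose from 3.06 ± 0.885 to 1364 ± 547 CPM (SD, n = 3, log2 fold change 8.80, adjusted p = 0.000623), and Tnf rose by 6.16 and Il6 by 5.56 on the log2 scale. Among the alternative genes Tgm2, a transglutaminase, rose by 4.13, Cd163, the haemoglobin scavenger receptor, by 3.67, and Il10 by 5.78. In spleen 2 of the 26 inflammatory genes rose, Il1a (3.61, adjusted p = 0.0396) and Tnf (3.25, adjusted p = 0.0397), and 1 fell. Of the 23 alternative genes 0 rose and 1 fell in spleen, the lectin Clec10a (-1.45, adjusted p = 0.0402). Of all features 0.780% were called higher and 0.596% lower in spleen. The list medians there were 0.22 for the inflammatory and 0.51 for the alternative genes, beside 0.05 over all features. For the spleen, edgeR gave an unadjusted p under 0.05 to 9 of the 26 and 10 of the 23 genes. The libraries did not overlap for 16 and 8 of them (35.1% of all features). The difference of the effects between the tissues was called for 2 of the 23 alternative genes, Clec10a (3.54, adjusted p = 0.0215) and Tgm2 (2.97, adjusted p = 0.0334). It was called for 1 of the 26 inflammatory genes, Ptgs2 (6.07, adjusted p = 0.0470), against 0.283% of all features. In edgeR 8 of the 23 and 13 of the 26 had an unadjusted p under 0.05, with list medians of 0.66 and 1.24 beside -0.12 over all features.

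Relatives of the secreted markers were measured beside them. Retnlg, a resistin-like gene known from neutrophils, measured 4.06 to 22.3 CPM in intact and 305 to 1658 CPM in resected blood (log2 fold change 5.62, SE 1.03, adjusted p = 0.00543). Chil1, a chitinase-like gene, measured 0.939 to 4.29 CPM and 54.0 to 431 CPM (6.35, SE 0.98, adjusted p = 0.00293). Retn, encoding resistin, rose too but reached 1.24 CPM at most (4.30, adjusted p = 0.0330), and Chil4, the nearest relative of Chil3, had at most 1 count in a library. Chil3 shares 16.9% of its 50-base words with Chil4. Ass1 shares 38.6% of its words with the predicted gene Gm5424, which measured 1.84 to 6.05 CPM in the group means, and how the counting divided such reads is not given in the sources used here. With the counts of Gm5424 added, a choice made after seeing the data, Ass1 differed between blood and spleen after resection by 1.71 and was still called.

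Transcripts of other cells moved with resection too. In blood all 14 neutrophil genes were called higher and in spleen 3 of the 14, against 7.80% and 0.780% of all features. In spleen 12 of the 14 had an unadjusted p under 0.05 in edgeR, with a list median of 2.32. The splenic libraries did not overlap for 12 of the 14 (35.1% of all features). Nos2 and Chil3 were highest in library 3 of both resected groups, where the neutrophil sum was highest as well. The same was true of Acod1, Slc7a2, Il4ra and Arg2, and in spleen alone of Ass1, Arg1 and Retnla. S100a8, an abundant neutrophil transcript, measured 1249 and 1519 CPM in libraries 1 and 2 of resected blood and 7421 CPM in library 3. The part of neutrophils in the levels of Nos2 and Chil3 was not tested. Of 7 T-cell genes 6 were called lower in blood (6.11% of all features were). Of 7 genes of red pulp macrophages 4 were called higher, their sum going from 45.1 to 78.0 CPM in intact blood to 602 to 927 CPM. In spleen the sum of 8 erythroid genes was 716 to 3374 CPM in intact and 7518 to 32779.7 CPM in resected animals, with 0 of the 8 called by edgeR and 8 at an unadjusted p under 0.05. The same sum was far higher in blood, at 124183 to 404899 CPM in intact and 217958 to 529538 CPM in resected animals. There 0 of the 8 were called. Haemoglobin genes made up 13.2% to 34.2% of the counts in blood libraries and 0.0814% to 3.47% in splenic ones. The part of these cells in the levels of the 10 genes was not tested either. Without library 3 of both resected groups, 6 of the 10 genes were called in blood, with Arg1 lost (4.77, adjusted p = 0.0798), and 1 in spleen.

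Genes of peritoneal macrophages differed by tissue and by resection at once. The sum of 10 such genes, among them Gata6, Prg4 and Saa3, was 40.1 to 50.5 CPM in intact spleen and 442 to 1315 CPM in intact blood. It rose to 9219 to 13923 CPM in blood after resection, where 9 of the 10 were called higher (7.80% of all features were). In spleen after resection it was 51.1 and 69.2 CPM in 2 libraries and 907 CPM in library 3, of which Saa3 made up 847 CPM. Gata6, the factor that defines these macrophages, measured at most 0.163 CPM in a splenic library, 2.85 to 5.86 CPM in intact and 17.7 to 23.7 CPM in resected blood. Slc7a2 and Arg1 were highest in the same 3 resected blood libraries, and the part of these cells in their levels was not tested. Hepatocytes express Arg1 and Ass1, and their 12 marker genes summed to at most 0.450 CPM in resected blood and 1.01 CPM in resected spleen, with Alb at no more than 2 counts in any of these 6 libraries. The sum of 6 Kupffer cell genes, most of which other tissue macrophages also express, was 75.9, 51.3 and 48.0 CPM in intact spleen, 396, 405 and 39.9 CPM in resected spleen, 92.9, 43.3 and 389 CPM in intact blood and 635, 789.6 and 507 CPM in resected blood. Of the 5 tested, 1 was called higher in blood and 0 in spleen, against 7.80% and 0.780% of all features. In spleen 4 of the 5 had an unadjusted p under 0.05 in edgeR, with a list median of 2.29 beside 0.05 over all features. The defining gene Clec4f did not pass the filter. It had 0 counts in the 6 resected libraries but was counted in both intact groups. The part of Kupffer cells in the levels of the 10 genes was not tested.

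**Figure D4:**
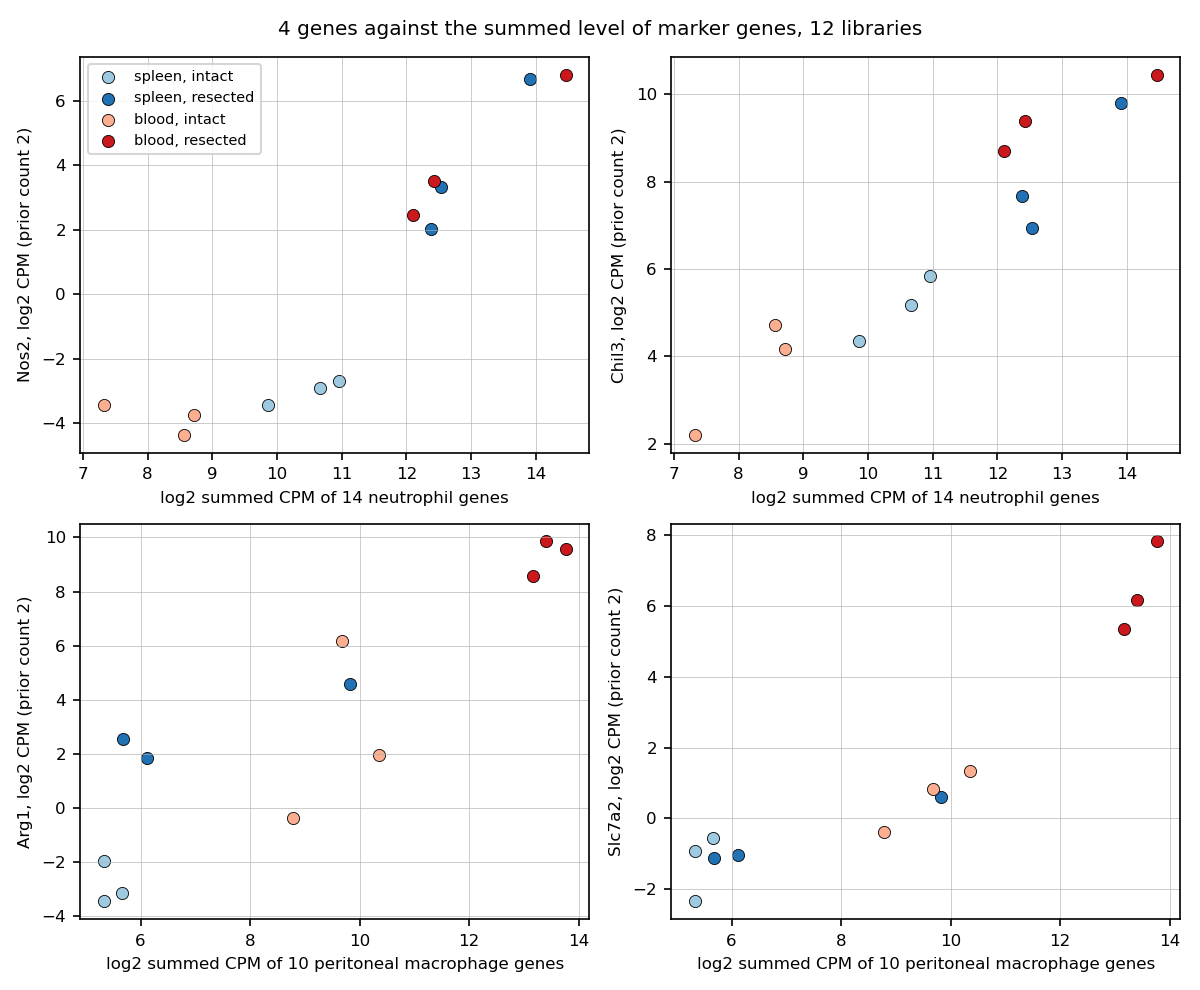
Log2 CPM (prior count 2) of Nos2 and Chil3 against the log2 summed CPM of 14 neutrophil genes, and of Arg1 and Slc7a2 against that of 10 peritoneal macrophage genes, in 12 libraries coloured by group. The library with the highest neutrophil sum (22558 CPM, resected blood) also has the highest Nos2, Chil3 and Slc7a2. The 3 resected blood libraries stand apart in the lower panels.

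Over the 12 libraries the 10 genes fell into sets by their log2 levels. Acod1 and Arg2 were the most alike (Pearson r = 0.943), followed by Acod1 and Chil3 (0.932), Nos2 and Chil3 (0.926), Nos2 and Acod1 (0.893) and Chil3 and Arg2 (0.891). Ass1 was most like Retnla (0.886) and Slc7a2 like Arg1 (0.875), and the lowest value was that of Gch1 and Retnla (-0.189). Chil3, an alternative gene, thus stood with the inflammatory genes Nos2 and Acod1. The libraries share the 4 groups, the depth and the cell mixture, and these values describe them without a test.

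**Figure D5:**
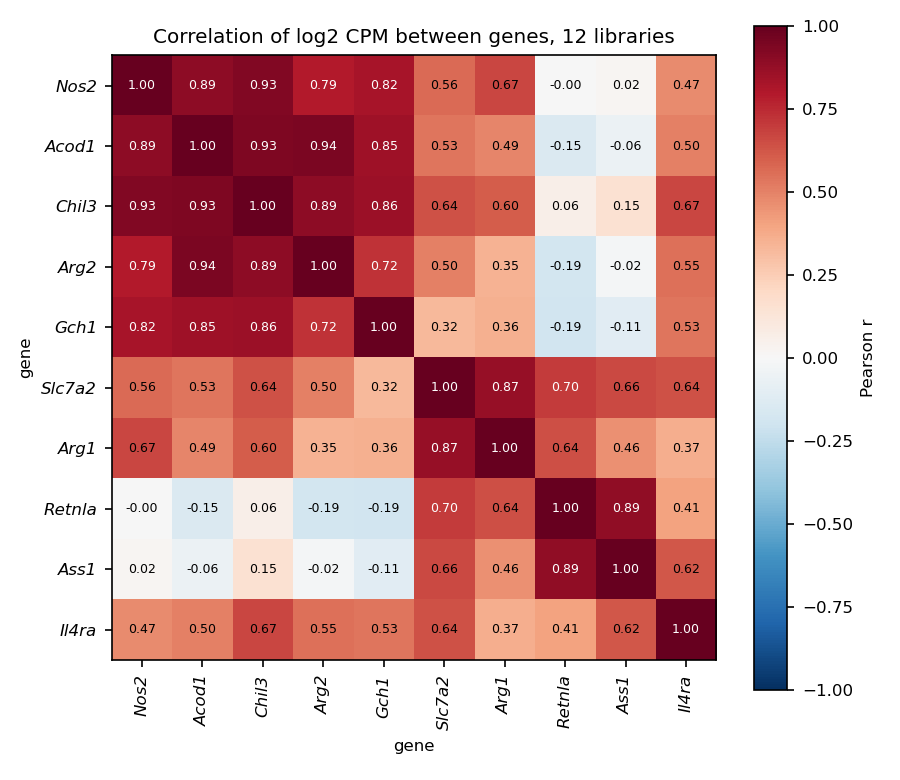
Pearson correlation of log2 CPM (prior count 2) between each pair of the 10 genes over the 12 libraries, from -1 in blue to 1 in red. Nos2, Acod1, Chil3, Arg2 and Gch1 form a block with high values (0.72 to 0.94), Slc7a2 and Arg1 pair at 0.87, and Retnla and Ass1 pair at 0.89.

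The other genes of the transcriptome with the nearest pattern, by the same measure, were named for each of the 10. Nos2 was most like B230303A05Rik (r = 0.993) and the stefins Stfa3 (0.987) and Stfa2 (0.984), and Acod1 was most like Chil1 (0.981), Upp1 (0.980) and Fpr1 (0.980). Chil3 was nearest to Selenon (0.986), Pygl (0.984) and Fcer1g (0.980), and Arg2 to Ccr1 (0.982), Hdc (0.973) and Tnfsf14 (0.972). Stfa2 had a group mean of 0.546 CPM in intact spleen, 33.5 CPM in resected spleen, 0.163 CPM in intact blood and 46.2 CPM in resected blood.

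Retnla was most like Arhgap10 (0.983), Thbs3 (0.983) and Gp5 (0.983), and Gp5, a platelet glycoprotein, had group means of 10.8 and 12.2 CPM in blood and 0.562 and 0.673 CPM in spleen. Ass1 was most like Gm5424 (0.985), with which it shares sequence, Tnfsf8 (0.970) and Rab27b (0.956). Slc7a2 was nearest to Gbe1 (0.984), Scarb2 (0.983) and Slc39a14 (0.982), and Arg1 to Grpel1 (0.986), Trem2 (0.981) and Cenpb (0.981). Trem2 measured 1.01 and 3.48 CPM in the intact and resected spleen means and 3.75 and 18.7 CPM in those of blood. Gch1 was most like B430306N03Rik (0.972), Tmem251 (0.971) and Rgs1 (0.970), and Il4ra like Gramd1b (0.954), Cmtm6 (0.953) and Orai1 (0.947).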

How the data were processed

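CD115+ monocytes of spleen and peripheral blood were profiled by RNA sequencing in 12 libraries, grouped by their labels. For each library the authors deposited estimated counts, scaled neither to library size nor to gene length. The submitters' processing notes name STAR and the build GRCm39. The counting tool, the annotation and whether counting used strand are not given in the sources used here. Each table held 67088 entries, of which 2558 unassigned transcripts (1.75% to 4.33% of a library) were left out. RefSeq accessions (25340 of 40274 matched) were summed into gene symbols through a RefSeq table of GRCm38.p6, used for names and promoter sequences, which gave 52553 features; none was summed into the 10 genes. The expected counts were rounded to whole numbers.

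The tests used edgeR 4.0.16 under R 4.3.3: filterByExpr, TMM factors (1.14 to 1.26 in spleen, 0.661 to 1.09 in blood) and a robust quasi-likelihood fit over the 12 libraries and 4 groups without covariates. The 5 comparisons were resection in each tissue, blood against spleen in each state, and the difference of the resection effects. The standard error was taken as the absolute log2 fold change divided by the square root of the F statistic. Floors of 3 counts cover counting error only. Replicates differed beyond sampling noise (chi-square 21.0 to 635 per degree of freedom). Transcript lengths and shared 50-base words came from a GENCODE M21 transcript set. The fit was tested on simulated counts. The genes and lists were chosen with earlier results of these data known. Named genes are the 10 genes, Csf1r, close relatives, up to 6 called genes of a described pathway list, up to 3 abundant or defining genes of a marker list, and the 3 most correlated genes with at least 1 CPM on average. Alternatives were DESeq2 1.42.0, RLE factors, no filter, a minimum of 10 counts, no fold limit, entries as deposited, haemoglobin genes left out, a replicate block, a fit of 2 groups alone, and leaving out each library. Leaving out library 3 of both resected groups and adding Gm5424 to Ass1 were chosen after seeing the data. Gata6, Clec4f and Alb were named as defining markers after their values were seen. The result of 1 gene of the inflammatory list is not reported here.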

Additional observations from a re-analysis of the deposited data

How the results depend on the processing

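The number of the 10 genes called in blood after resection was 7, and 4 when at least 10 counts were required in every library, a filter that leaves 6 of the 10 genes to test. With that filter 17.9% of all features were called in blood, against 13.9% in the main fit. In spleen the number of the 10 genes called was 1, and 5 with DESeq2, 0 without a filter, 2 with at least 10 counts (Gch1 and Chil3) and 2 with only the 2 groups compared (Gch1 and Arg1, with Nos2 lost). Over all features these settings called 1.38%, 7.77%, 0.307%, 3.61% and 1.33% in turn. With at least 10 counts the number was 2 in place of 4 between the intact tissues, 1 in place of 4 between the resected tissues, and 1 in place of 0 for the difference of effects, where DESeq2 called 3. That filter called 7.77%, 14.6% and 0.730% of all features in these comparisons, and DESeq2 5.78% for the difference. Leaving out each library in turn gave 6 to 7 genes in blood, 0 to 4 in spleen, 1 to 5 between the intact tissues, 2 to 4 between the resected ones and 0 to 1 for the difference. Over all features these fits called 7.71% to 13.4% for resection in blood and 0.00473% to 4.87% in spleen. They called 2.51% to 7.09% between the intact tissues, 6.88% to 17.2% between the resected ones and 0.0236% to 0.442% for the difference. In spleen the 4 genes came without intact blood library 3, where 4.87% of all features were called. In blood the calls of Nos2, Acod1, Slc7a2, Gch1, Chil3 and Arg2 were kept in all 12 of these fits.

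The remaining changes of sign concern genes that were not called. For Retnla in blood the log2 fold change was 0.000792 with DESeq2, 0.000859 with RLE factors and 0.13 with the replicate block. For the Csf1r difference of effects it was 0.0484 with the replicate block. When libraries were left out, each in turn or library 3 of both resected groups together, the log2 values in blood ran from -0.21 to 0.46 for Ass1 and -0.53 to 0.36 for Retnla. In spleen they ran from -0.73 to 0.10 for Ass1, -0.31 to 3.46 for Retnla and -0.28 to 0.73 for Arg2. Between the tissues they ran from -0.0788 to 0.92 for Il4ra in intact animals, and after resection from -2.08 to 2.71 for Nos2 and -0.24 to 0.0442 for Gch1. The difference of effects ran from -0.59 to 4.16 for Nos2, -0.0251 to 0.94 for Ass1, -2.88 to 1.57 for Arg1, -3.47 to 0.60 for Retnla and -0.32 to 0.27 for Csf1r. The cause was not tested. With haemoglobin genes left out the mean of Ass1 was 22.6 CPM in intact spleen and 70.5 CPM in resected blood, and that of Gch1 60.8 CPM in resected blood.

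The replicate numbers were not shown to pair the samples, since the deviations of same-numbered libraries correlated above 0.1 in all 3 pairs for no pair of groups. The nearest were resected spleen and resected blood (0.0420, 0.131 and 0.189), where each library was most like its own number. With the replicate block 7, 1, 3, 3 and 0 of the 10 genes were called in the 5 comparisons, and over all features 2168 in place of 2801, 150 in place of 277, 1162 in place of 1480, 2257 in place of 2648 and 1 in place of 57. DESeq2 called 1564 features for resection in spleen, 2568 between the intact tissues and 1163 for the difference. Without a filter 101 were called in spleen and 22 for the difference, and with at least 10 counts 489 and 99. With only the 2 groups compared, 1590 were called for resection in blood and 796 between the intact tissues. With 3 libraries a group and counts of 0 to 10 for Nos2, Arg1 and Retnla in some groups, the size of their changes is poorly determined.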
